A study of Mus musculus with 6 samples.

Results

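The regions described here are the H3K27ac peaks of the mouse autosomal windows in which wild-type RAW264.7 cells had most peaks. Chromosomes 1 to 19 were cut into windows of 5 Mb, a peak was placed in a window by its centre, and windows with 120 or more wild-type peaks were kept. Of 491 windows with a wild-type peak, 40 passed, or 8.15%, and together they span 200 Mb. They held 17420 of the 79419 peaks deposited for the 3 genotypes, with 5510 peaks in Bmal1KO, 5842 in Mfp2KO and 6068 in wild type. The wild-type peak count per window chose the members, so it is given as a description and supports nothing below.

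The study used ChIP-seq to profile acetylation of histone H3 at lysine 27 in the macrophage-like mouse line RAW264.7, as Bmal1 knockout (Bmal1KO), Mfp2 knockout (Mfp2KO) or wild-type cells. The labels call wild type naive and name no stimulus, and whether each knockout line is 1 clone or a pool is not stated. Each genotype had 1 ChIP and 1 input library, so no difference between genotypes could be tested, and every interval below is a 95% interval that covers the counting of peaks only. These intervals take peaks as independent and leave out the spread between windows and between libraries. Intervals that lie apart are therefore no test. The ChIP libraries held 12.5 M tags in Bmal1KO, 15.8 M in Mfp2KO and 15.8 M in wild type, and by the authors' deposited headers 37.4%, 57.2% and 38.7% of these tags, in the same order, lay in peaks. Positions are in mouse build mm39. The available gene table belongs to a different mouse build, no gene was tied to a peak, and the knockout labels and the macrophage markers were not checked at their genes.

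H3K27ac is laid down by the acetyltransferases CBP and p300 at active promoters and enhancers. Active promoters and enhancers are not spread evenly along a mammalian chromosome: gene-dense, GC-rich stretches hold many of them, and gene-poor stretches few. In such stretches enhancers often stand in groups, and in macrophages many of them are bound by the lineage factor PU.1. BMAL1 binds DNA with its partner CLOCK as the activating arm of the circadian clock. MFP2, the product of Hsd17b4, carries out steps of peroxisomal β-oxidation of very long chain and branched fatty acids.

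The 40 windows lay on 15 of the 19 chromosomes. Chromosome 11 had 7 of its 25 windows among them and chromosome 2 had 6 of 36, whereas chromosomes 12, 13, 14 and 18 had none. Most stood alone: 30 had no peak-rich neighbour, and the other 10 formed 5 pairs of touching windows, such as 135 to 145 Mb of chromosome 5 and 75 to 85 Mb of chromosome 15. Peaks were uneven inside the windows as well. When the windows were divided into 400 bins of 500 kb, the median bin held 15 wild-type peaks, 33 bins held none, and the 133 densest bins held 58.5% of the wild-type peaks. The densest bin, on chromosome 16 (24500000-25000000), had 23 peaks in Bmal1KO, 15 in Mfp2KO and 47 in wild type. The next had 30 peaks in Bmal1KO, 32 in Mfp2KO and 41 in wild type, on chromosome 3 (95500000-96000000). Next came 5 bins with 40 wild-type peaks each, which differed among themselves. Those on chromosome 10 had 47 in Bmal1KO and 43 in Mfp2KO (79500000-80000000), and 27 in Bmal1KO and 21 in Mfp2KO (96000000-96500000). Those on chromosome 4 had 35 in Bmal1KO and 40 in Mfp2KO (132500000-133000000), and 22 in Bmal1KO and 19 in Mfp2KO (144500000-145000000). The one on chromosome 9 had 37 in Bmal1KO and 40 in Mfp2KO (21000000-21500000). All of these bins were picked for high wild-type counts, which itself favours lower counts in the knockouts.

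The number of peaks called per window, with or without a wild-type counterpart, was lower than in wild type in most windows of each knockout. Per window, Bmal1KO had 85 to 213 peaks (median 133), Mfp2KO 63 to 245 (median 140) and wild type 120 to 224 (median 141.5). Bmal1KO had fewer peaks than wild type in 33 windows, more in 5 and as many in 2. Mfp2KO had fewer in 24 windows and more in 16. Of 362 other windows with 20 or more wild-type peaks, Bmal1KO had more peaks than wild type in 59 and Mfp2KO in 40. The other windows had their own, lower wild-type counts, and the choice of the 40 windows on a high wild-type count favours a lower count in either knockout.

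**Figure D1:**
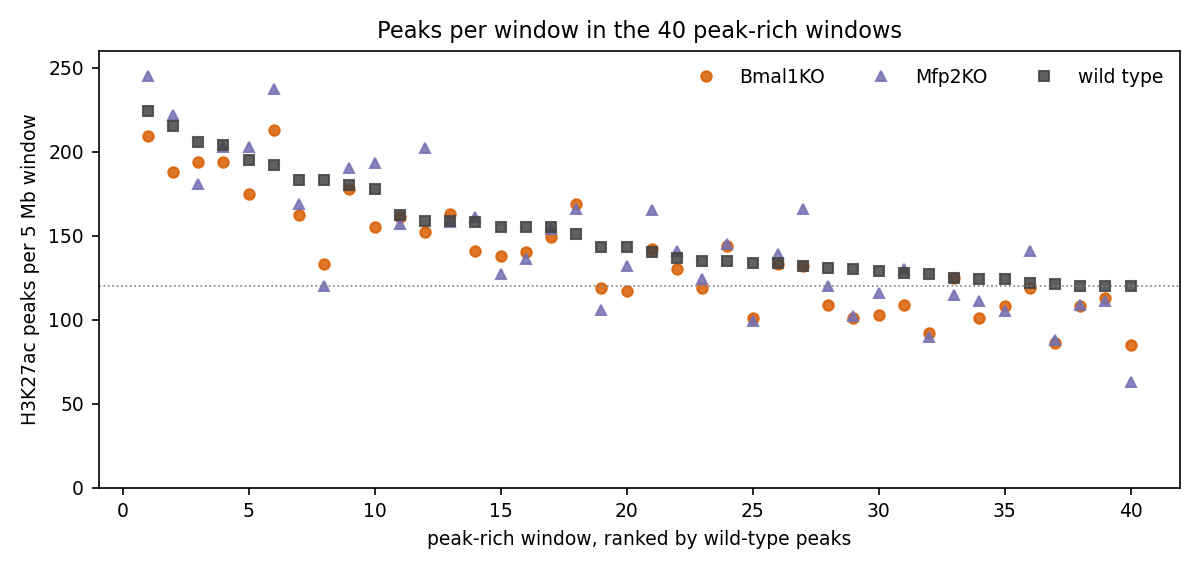
Number of H3K27ac peaks (vertical axis) in each of the 40 peak-rich windows, ranked from left to right by the wild-type count, with 1 point per library and a dotted line at the minimum of 120 wild-type peaks. Bmal1KO lies below wild type in 33 windows and Mfp2KO in 24, with Mfp2KO spanning 63 to 245 peaks.

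The windows with most wild-type peaks show this spread. From 130 to 135 Mb of chromosome 4 there were 209 peaks in Bmal1KO, 245 in Mfp2KO and 224 in wild type. From 25 to 30 Mb of chromosome 17 the count was 188 in Bmal1KO, 222 in Mfp2KO and 215 in wild type. From 135 to 140 Mb of chromosome 5 there were 194, 181 and 206 peaks in Bmal1KO, Mfp2KO and wild type. Of the first 6, this was the only window in which Mfp2KO had fewer peaks than Bmal1KO. From 75 to 80 Mb of chromosome 15 the counts were 194 in Bmal1KO, 203 in Mfp2KO and 204 in wild type, and from 30 to 35 Mb of chromosome 2 they were 175, 203 and 195. Only from 115 to 120 Mb of chromosome 11, of these 6, did each knockout have more peaks than wild type, with 213 in Bmal1KO, 237 in Mfp2KO and 192 in wild type.

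The 5 windows at most 2 wild-type peaks above the minimum had fewer than 120 peaks each in Bmal1KO, the lowest 85, and 63 to 141 in Mfp2KO. The 7 windows at most 3 wild-type peaks below it had 92 to 125 peaks in Bmal1KO and fewer than 120 each in Mfp2KO, the lowest 85. The ranges overlap, and the minimum of 120 marks no break in the data.

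All windows were also grouped by their wild-type peak count. That count chose the peak-rich windows and is the denominator of the first values below, so the classes are a description only. In windows with 1 to 39 wild-type peaks, with 40 to 79, with 80 or more but under 120, and with 120 or more, Mfp2KO had 71.3%, 80.1%, 84.4% and 96.3% of the wild-type number of peaks. In Bmal1KO the values over the same classes were 84.3%, 87.2%, 88.3% and 90.8%. The Mfp2KO peaks without a wild-type peak made up 21.3%, 24.5%, 25.7% and 28.7% of its peaks in these classes. For Bmal1KO this share stayed between 23.4% and 24.2%. The tags summed over peaks, scaled by the authors to 10 M per library, were 1.38, 1.42, 1.47 and 1.59 times wild type in Mfp2KO and 0.955, 0.958, 0.965 and 0.966 times wild type in Bmal1KO. These ratios include the difference between whole libraries in the share of tags that lay in peaks. That share was 37.4% in Bmal1KO, 57.2% in Mfp2KO and 38.7% in wild type.

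**Figure D2:**
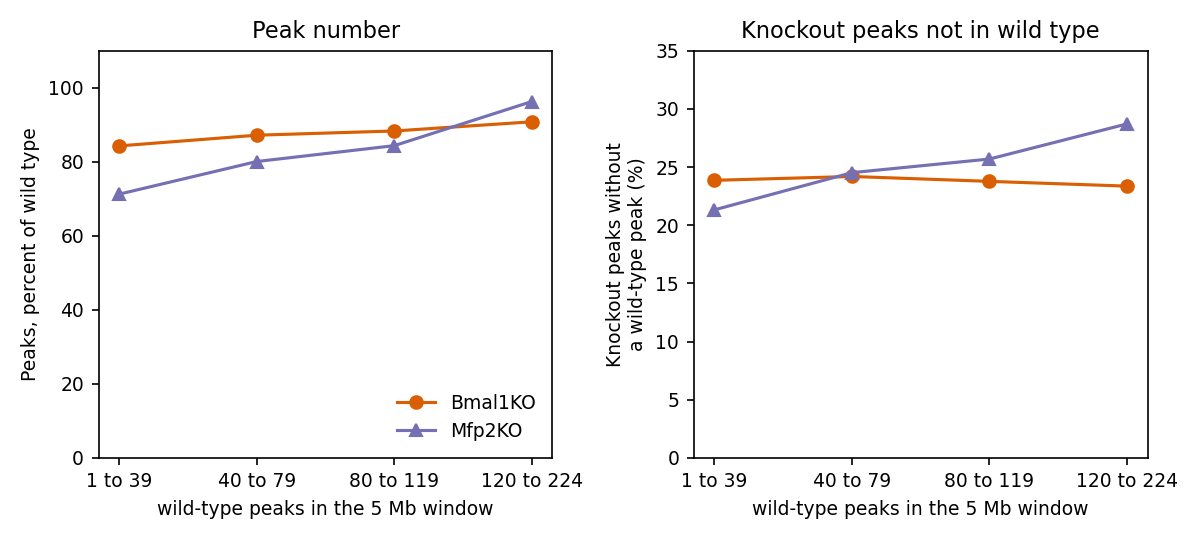
Left, number of knockout peaks in percent of wild-type peaks, and right, percent of knockout peaks with no overlapping wild-type peak, for windows of 5 Mb grouped by their wild-type peak count (horizontal axis, lowest class to the left). Each point pools all windows of a class in 1 library; Mfp2KO goes from 71.3% to 96.3% on the left and from 21.3% to 28.7% on the right.

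As a share of each list on chromosomes 1 to 19, the peak-rich windows held 21.9% of Bmal1KO peaks, 24.4% of Mfp2KO peaks and 21.2% of wild-type peaks. Their share of peak tags was 23.7% in Bmal1KO, 25.5% in Mfp2KO and 23.6% in wild type. By window, the share of its list's tags was higher in Bmal1KO than in wild type in 20 of 40 windows, and in Mfp2KO in 26 of 40. In the other 362 windows it was higher in 165 for Bmal1KO and in 138 for Mfp2KO. The share is taken within each list's own peak tags, which removes a uniform scale between libraries and no more. Whether the part of a library's tags in peaks, or the choice of windows on the wild-type count, bears on it was not tested.

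Peaks in the peak-rich windows were wider and held more tags than peaks elsewhere in all 3 libraries. Median widths in peak-rich and other windows were 1588 and 1371 bp in Bmal1KO, 1682 and 1590 bp in Mfp2KO, and 1852 and 1675 bp in wild type. Median tags per kb were 30.4 and 24.99 in Bmal1KO, 43.3 and 36.4 in Mfp2KO, and 29.1 and 23.0 in wild type. The input was higher there too: median input tags per kb, per 10 M tags, were 5.16 and 4.07 in Bmal1KO, 6.27 and 5.46 in Mfp2KO, and 4.82 and 3.77 in wild type. The fold over input, the authors' ratio of ChIP to input tags, was lower in peak-rich windows, at a median of 7.20 and 7.87 in Bmal1KO, 7.72 and 8.53 in Mfp2KO, and 6.59 and 7.21 in wild type. Peaks under 5-fold, close to the authors' limit of 4-fold, were 20.02%, 18.9% and 23.2% of the peaks in these windows in Bmal1KO, Mfp2KO and wild type, and 15.8%, 15.1% and 17.5% elsewhere.

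Broad domains were fewer in the knockouts, and less so in these windows than elsewhere. Peaks over 5 kb numbered 216 in Bmal1KO, 299 in Mfp2KO and 511 in wild type, so that the knockouts had 42.3% and 58.5% of the wild-type number. In other windows they had 29.8% and 31.8%. The called length was 10.5 Mb in Bmal1KO, 11.6 Mb in Mfp2KO and 14.3 Mb in wild type, or 73.6% and 81.5% of wild type, against 69.0% and 65.8% in other windows. Bmal1KO had less called length than wild type in all 40 windows, and Mfp2KO in 37. The 3 exceptions in Mfp2KO were 120 to 125 Mb of chromosome 8 at 103.7% of wild type, 25 to 30 Mb of chromosome 7 at 100.5%, and 75 to 80 Mb of chromosome 10 at 106.3%. Tag density over the called length of these windows was 82.4 per kb in Bmal1KO, 122.3 in Mfp2KO and 62.8 in wild type. In other windows it was 81.3, 127.5 and 58.4. By this measure Mfp2KO was lower in peak-rich windows, unlike its median tags per kb.

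The question of which wild-type peaks lack a knockout peak was then asked inside the windows. A peak counts as absent if no peak of the other list overlaps it by at least 1 bp. Each list has its own input and tag minimum, so the absence of a call is not the absence of the mark. Of the 6068 wild-type peaks in the windows, 2209 had no Bmal1KO peak, or 36.4% (35.2 to 37.6), where the whole wild-type list gives 38.9%. No Mfp2KO peak overlapped 2116, or 34.9% (33.7 to 36.1), where the whole list gives 41.4%. Relative to other windows of chromosomes 1 to 19, the share differed by -3.22 percentage points for Bmal1KO (36.4% and 39.6%, interval of the difference -4.58 to -1.85) and by -8.39 points for Mfp2KO (34.9% and 43.3%, interval -9.75 to -7.02). Both comparisons use the same wild-type list. Its peak count also chose the windows, which itself favours more absent wild-type peaks in them, so the differences are not free of that choice. The Bmal1KO difference varied with the processing, from -1.70 to -6.57 points. It was -1.70 points (-3.07 to -0.31) with equal numbers of peaks per list. A minimum of 140 peaks gave -5.49, and 6-fold over input -5.59. In the windows with most Bmal1KO peaks it was -6.57, but that choice of windows itself favours fewer absent peaks. The absent peaks were small: their median was 11.1 tags in each comparison, against 136 and 132 tags for wild-type peaks with a Bmal1KO and an Mfp2KO peak, and they held 4.52% and 4.39% of the wild-type tags in these windows.

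In the other direction, 1287 of 5510 Bmal1KO peaks in the windows had no wild-type peak, or 23.4% (22.3 to 24.5), where the whole Bmal1KO list gives 23.6%. In Mfp2KO it was 1677 of 5842, or 28.7% (27.6 to 29.9), where the whole Mfp2KO list gives 25.4%. Peak-rich and other windows differed by -0.62 points for Bmal1KO (23.4% and 24.0%, interval -1.87 to 0.66) and by 4.15 points for Mfp2KO (28.7% and 24.6%, interval 2.85 to 5.48). Whether the choice of windows on the wild-type count bears on these shares was not tested. The knockout peaks without a wild-type peak were also small, with a median of 10.8 tags in Bmal1KO and 13.9 in Mfp2KO.

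The knockout lists were compared with each other as well, which leaves the wild-type library out except for the choice of windows. Of 5842 Mfp2KO peaks in the windows, 2067 had no Bmal1KO peak, or 35.4% (34.2 to 36.6), where the whole Mfp2KO list gives 32.1%. Of 5510 Bmal1KO peaks, 1641 had no Mfp2KO peak, or 29.8% (28.6 to 31.0), where the whole Bmal1KO list gives 34.6%. The difference between peak-rich and other windows was 4.13 points in the first direction (35.4% and 31.3%, interval 2.73 to 5.53) and -6.40 points in the second (29.8% and 36.2%, interval -7.77 to -5.00).

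Peaks of each list were closer together in these windows, and a chance overlap is more likely where peaks are dense. Windows chosen for many wild-type peaks must have shorter wild-type gaps, so the gaps and distances are a description. The median gap between neighbouring peaks of a list was 11876 bp in Bmal1KO, 10159 bp in Mfp2KO and 9618 bp in wild type, against 18255, 17914 and 13496 bp elsewhere. A wild-type peak without a Bmal1KO peak lay at a median of 4249 bp from the nearest one, against 6976 bp in other windows. For Mfp2KO these distances were 4310 and 8763 bp. The part of spacing in the shares was not tested. With at least 50% of the wild-type peak required to be covered, the difference between peak-rich and other windows was -4.38 points for Bmal1KO and -10.5 points for Mfp2KO.

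Absent peaks were mostly those with few tags, and among peaks of like tags the knockouts parted. Wild-type peaks of chromosomes 1 to 19 were divided into deciles by their tags. Between 23.7 and 41.5 tags, the fifth decile, 44.5% (40.5 to 48.6) of peaks in peak-rich windows had no Bmal1KO peak and 41.6% (39.6 to 43.7) of those elsewhere. In the same decile 41.5% (37.6 to 45.6) had no Mfp2KO peak in peak-rich windows and 50.5% (48.5 to 52.6) elsewhere. In the next decile, 41.5 to 72.2 tags, the values were 20.5% and 18.1% for Bmal1KO, and 18.5% (15.5 to 21.8) and 26.6% (24.9 to 28.5) for Mfp2KO. For Bmal1KO the share was higher in peak-rich windows in 8 of 10 deciles, with no decile in which the intervals were apart. For Mfp2KO it was lower in 10 of 10 deciles, with intervals apart in 3. As the intervals leave out the spread between windows, these counts are a description.

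**Figure D3:**
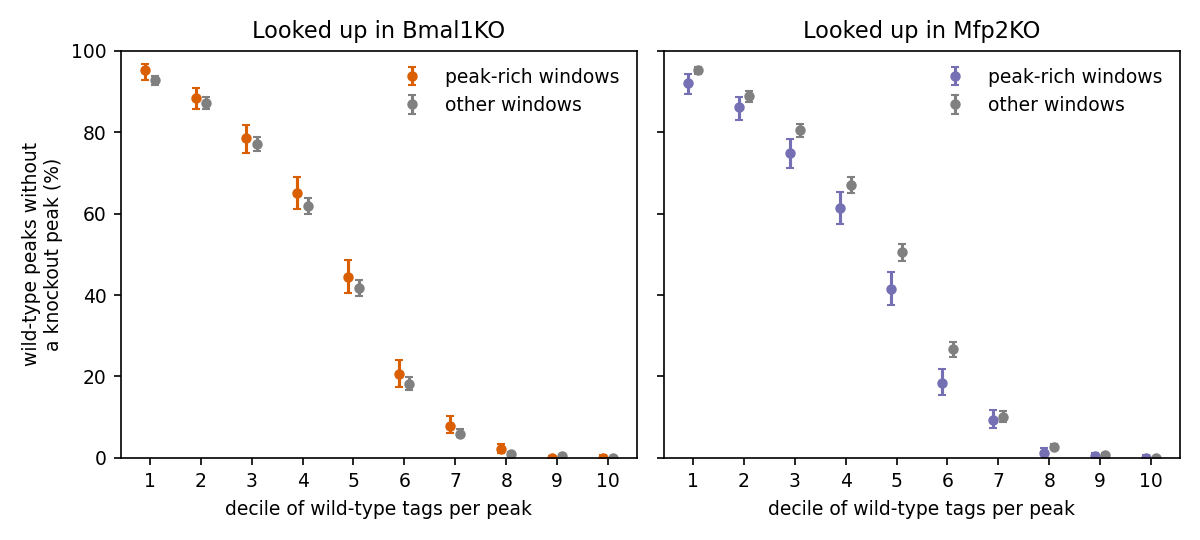
Percent of wild-type peaks with no overlapping peak in Bmal1KO (left) or Mfp2KO (right), by decile of wild-type tags per peak, in peak-rich windows (coloured) and other windows (grey); bars are 95% Wilson intervals over peaks. Coloured and grey points nearly coincide for Bmal1KO and lie apart in the middle deciles for Mfp2KO, such as 41.5% and 50.5% in the fifth.

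Put as totals, wild-type peaks of the windows would number 2116 without a Bmal1KO peak if each decile had the rate of the other windows, where 2209 were observed. For Mfp2KO 2327 would be absent at those rates, and 2116 were. Deciles of fold over input in place of tags gave 2553 for Bmal1KO and 2766 for Mfp2KO, above the observed numbers for either knockout, and deciles of tags per kb gave 1921 and 2109. For Bmal1KO the observed number thus lay above or below that of the other windows according to the measure of strength. For Mfp2KO it lay below by tags and by fold, and was about equal by tags per kb.

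Knockout peaks without a wild-type peak were more frequent in peak-rich windows at equal tags. At the rates of other windows in the same decile of Mfp2KO tags, 1341 Mfp2KO peaks of the windows would lack a wild-type peak, and 1677 did. For Bmal1KO 1143 would, and 1287 did. The share was higher in peak-rich windows in 8 of 10 deciles for Mfp2KO, with intervals apart in 5, and in 7 of 10 for Bmal1KO, with intervals apart in 3. The gap was widest in the following deciles. Among Mfp2KO peaks with 8.87 to 12.4 tags, 71.3% (67.4 to 74.8) had no wild-type peak in peak-rich windows and 57.0% (54.7 to 59.2) elsewhere. Among Bmal1KO peaks with 21.1 to 35.9 tags, the values were 25.6% (21.9 to 29.6) and 15.98% (14.5 to 17.6). By fold over input the counts at the other windows' rates were 1586 for Mfp2KO, still below the observed 1677, and 1429 for Bmal1KO, above the observed 1287.

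Windows with more input per kb had fewer absent peaks, among the peak-rich and the other windows alike. Input was taken from regions called in every list and set relative to the median window, and it was higher in the peak-rich windows, with a median of 1.14 in Bmal1KO, 1.04 in Mfp2KO and 1.15 in wild type. The classes below leave out windows with fewer than 20 wild-type peaks or fewer than 10 regions called in every list. In windows with wild-type input under 0.9, 50.8% (46.1 to 55.5) of wild-type peaks had no Bmal1KO peak in 3 peak-rich windows and 44.8% (43.5 to 46.1) in 107 other windows. In the next classes up, which divide the range from 0.9 to 1.2, the shares were 40.9% and 39.03%, then 36.1% and 35.4%. At 1.2 and above they were 32.3% (30.5 to 34.1) and 34.1% (32.1 to 36.1). Between windows of like input, the peak-rich windows were thus within 2 points of the other windows for Bmal1KO, except under 0.9. For Mfp2KO the shares from the lowest to the highest class were 56.1%, 41.3%, 34.0% and 29.2% in peak-rich windows, against 50.4%, 43.2%, 37.0% and 33.6% in other windows. In the highest class, with 15 peak-rich and 30 other windows, the intervals were apart (27.4 to 31.0 and 31.7 to 35.6). Mfp2KO there had 104.9% of the wild-type number of peaks in peak-rich windows and 97.6% in other windows. In Mfp2KO the share of peaks that wild type lacked differed less between windows of like input than over all windows. The latter set also holds the windows left out of the classes, so the sets are unlike. From the lowest to the highest class this Mfp2KO share was 20.2%, 24.7%, 29.6% and 30.2% in peak-rich windows, against 20.4%, 24.3%, 26.9% and 29.1% in other windows, with overlapping intervals in each class. For Bmal1KO it was 20.1%, 21.6%, 22.5% and 25.2% in peak-rich windows, against 21.6%, 23.03%, 25.8% and 27.04% in other windows, lower in each class, with intervals apart in the class just under 1.2 (20.7 to 24.4 and 24.7 to 27.04). Peak density of a window and its input move together in these data, and their parts were not tested.

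**Figure D4:**
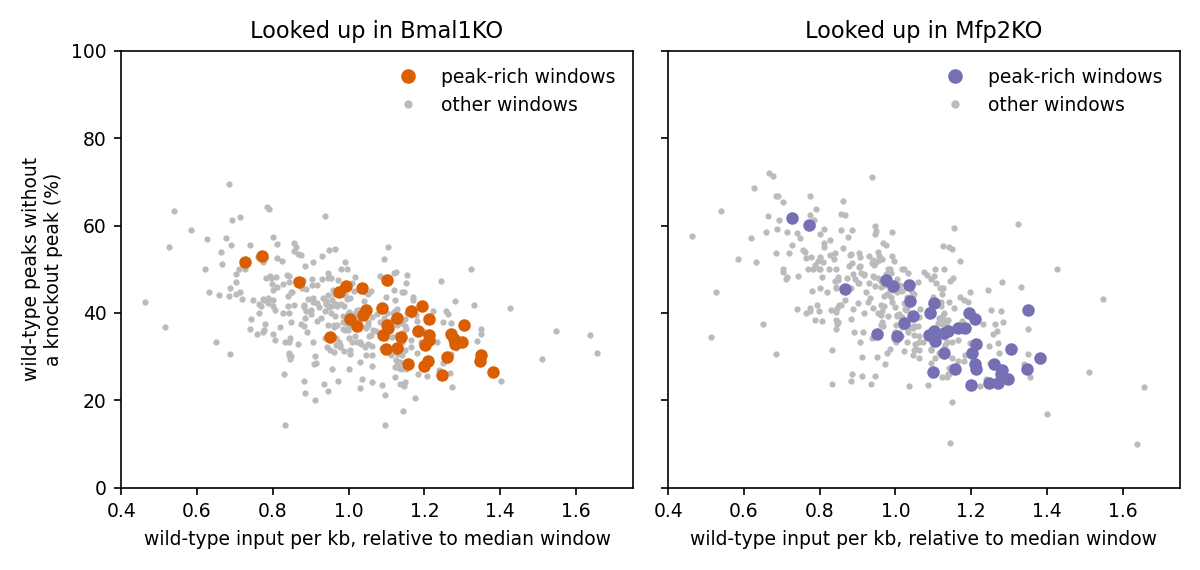
Percent of wild-type peaks without a Bmal1KO (left) or Mfp2KO (right) peak in each window, against wild-type input tags per kb relative to the median window; coloured points are the 40 peak-rich windows and grey points other windows with 20 or more wild-type peaks and 10 or more regions called in every list. Shares fall from left to right in both panels, and the coloured points at the upper left are the windows of chromosomes 10 and 16 with input of 0.727 and 0.773.

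Single windows ranged widely around these averages. In Bmal1KO the share of absent wild-type peaks ran from 25.8% to 53.0% over the 40 windows (median 35.5%). It was highest from 20 to 25 Mb of chromosome 16, at 53.0% (45.8 to 60.1) of 183 peaks, and from 95 to 100 Mb of chromosome 10, at 51.7% (42.8 to 60.4) of 120. Next came 140 to 145 Mb of chromosome 4 at 47.7% and 130 to 135 Mb of chromosome 2 at 47.0%. It was lowest from 95 to 100 Mb of chromosome 11, at 25.8% (19.6 to 33.1) of 159 peaks, then from 80 to 85 Mb of chromosome 10 at 26.5%, 25 to 30 Mb of chromosome 7 at 27.9% and 5 to 10 Mb of chromosome 19 at 28.3%.

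In Mfp2KO the share ran from 23.6% to 61.7% (median 35.04%). The window of chromosome 10 from 95 to 100 Mb was highest at 61.7% (52.7 to 69.9), followed by chromosome 16 from 20 to 25 Mb at 60.1% (52.9 to 66.9). After a gap came 85 to 90 Mb of chromosome 1 at 47.6% and 85 to 90 Mb of chromosome 11 at 46.5%. The lowest shares were 23.6% (17.3 to 31.3) from 25 to 30 Mb of chromosome 7, 23.9% from 120 to 125 Mb of chromosome 8, 23.9% from 95 to 100 Mb of chromosome 11, and 25% from 75 to 80 Mb of chromosome 15. On chromosome 8 the same window was at 35.2% in Bmal1KO, and its peak number was 152 in Bmal1KO, 202 in Mfp2KO and 159 in wild type. There 39.6% of Mfp2KO peaks had no wild-type peak, the highest such share of the 40 windows.

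The windows of chromosomes 10 and 16 had the highest absent shares in each knockout. In Mfp2KO they were at 61.7% and 60.1%, against 47.6% in the next window. The step was smaller in Bmal1KO, from 51.7% and 53.0% to 47.7%. On chromosome 10 from 95 to 100 Mb there were 85 peaks over 121.7 kb in Bmal1KO, 63 over 105.1 kb in Mfp2KO and 120 over 244.4 kb in wild type. The summed tags were 7236 in Bmal1KO, 9804 in Mfp2KO and 10590 in wild type, and only here among the 40 windows did Mfp2KO hold fewer tags than wild type. On chromosome 16 from 20 to 25 Mb there were 133 peaks over 273.5 kb in Bmal1KO, 120 over 209.6 kb in Mfp2KO and 183 over 477.6 kb in wild type, with 15816, 20224 and 19688 tags. These windows also had the lowest input of the 40, at 0.722, 0.765 and 0.727 of the median window in Bmal1KO, Mfp2KO and wild type on chromosome 10, and 0.783, 0.801 and 0.773 on chromosome 16. The input was thus low in all 3 genotypes to a similar degree. Without these windows the difference between peak-rich and other windows was -4.07 points for Bmal1KO and -9.75 points for Mfp2KO.

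At regions called in both lists of a pair, tags and length were compared directly. In peak-rich windows 3793 regions were called in Bmal1KO and wild type. Their median log2 ratio of tags, Bmal1KO over wild type, was -0.19 in peak-rich windows and -0.27 elsewhere, and 74.5% and 76.5% were shorter in Bmal1KO. For Mfp2KO there were 3786 shared regions, with a median log2 ratio of 0.59 in peak-rich windows and 0.37 elsewhere, and 68.4% and 77.8% were shorter in Mfp2KO. Tags over 2-fold lower in Mfp2KO than in wild type were found at 12.8% of shared regions in peak-rich windows and 20.3% elsewhere. Tags over 2-fold higher were found at 34.8% and 29.6%. The corresponding values for Bmal1KO were 19.9% and 22.5% lower, and 5.48% and 5.42% higher. Tags are scaled to each library's total, and Mfp2KO had the largest share of its tags in peaks. Input tags per kb of called length at these regions differed too. They were 9.87 in Mfp2KO and 6.73 in wild type in peak-rich windows, and 9.58 and 5.86 elsewhere. For the Bmal1KO pair they were 7.13 in Bmal1KO and 6.71 in wild type, and 6.19 and 5.73 elsewhere. The parts of the input and of the share of tags in peaks in the ratios were not tested.

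The strongest peaks of these windows were found in all 3 genotypes. In Bmal1KO the peak with most tags lay on chromosome 17 (27770789-27781581), with 2483 tags in Bmal1KO, 3592 in Mfp2KO and 2249 in wild type. It was among the top 3 of every list. A peak of chromosome 1 (86452634-86457357) held 2447 tags in Bmal1KO, 3505 in Mfp2KO and 1650 in wild type, the last over a wider peak of 6989 bp against 4723 bp in Bmal1KO. A peak on chromosome 6 (117882123-117887503) had 2335 tags in Bmal1KO, 2823 in Mfp2KO and 1098 in wild type, the lowest wild-type value of those named here. The peak with most tags in Mfp2KO, on chromosome 5 (142799626-142810244), had 2198 tags in Bmal1KO, 5717 in Mfp2KO and 2196 in wild type over 10.6 to 11.6 kb. In wild type the leading peak was on chromosome 4 (133477687-133486562), with 2267 tags in Bmal1KO, 2814 in Mfp2KO and 2900 in wild type, so that Mfp2KO was not above wild type there. On chromosome 10 (79982344-80005217) a wild-type domain of 22873 bp with 2456 tags matched 2 peaks in Bmal1KO with 2312 tags and 2 in Mfp2KO with 4698 tags.

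The longest wild-type domains of the windows were broken into several peaks in the knockouts. They were chosen for their length in wild type, which itself favours shorter or split calls in the other lists. On chromosome 19 (9025572-9061347) 8 Bmal1KO peaks covered 21115 bp with 634 tags and 7 Mfp2KO peaks 21432 bp with 726 tags, where wild type had 1 peak of 35775 bp with 2035 tags. On chromosome 16 (24855980-24886204) 4 Bmal1KO peaks held 1014 tags and 4 Mfp2KO peaks 1082 tags, against 1 wild-type peak of 30224 bp with 1763 tags. Tags did not always go with the splitting. On chromosome 19 (5846087-5872879) Bmal1KO had 4 peaks with 1681 tags and Mfp2KO 3 peaks with 3294 tags, against 1959 tags in the single wild-type peak of 26792 bp. Over all shared wild-type peaks in the windows, 9.07% were split in Bmal1KO and 8.02% in Mfp2KO, close to the 8.45% and 7.54% of other windows. In the reverse direction, 1.54% of shared Bmal1KO peaks and 3.87% of shared Mfp2KO peaks were split in wild type. The values elsewhere were 1.11% and 2.25%.

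Peaks of any list at most 10 kb apart were joined into chains. Windows chosen for many peaks must hold long chains more often, so the chains are a description. In the peak-rich windows 106 of 3339 chains, or 3.17%, spanned over 50 kb. They held 16.7% of Bmal1KO peaks, 17.0% of Mfp2KO peaks and 16.3% of wild-type peaks in the windows. The longest in these windows, on chromosome 5 (136415537-136598689), had 21 peaks covering 44.7 kb in Bmal1KO, 19 covering 39.6 kb in Mfp2KO and 24 covering 62.2 kb in wild type. Its tags were 2153 in Bmal1KO, 2763 in Mfp2KO and 2892 in wild type. The chain on chromosome 16 (24716237-24886204), inside the window with the highest absent share in Bmal1KO, had 1847 tags in Bmal1KO, 1529 in Mfp2KO and 4302 in wild type. On chromosome 2 (30914488-31061545) the chain had 20 peaks with 1811 tags in Bmal1KO, 21 with 2474 tags in Mfp2KO and 28 with 3265 tags in wild type. In all 3 chains each knockout had fewer peaks, less called length and fewer tags than wild type. The choice of windows on the wild-type count favours wild type in such a comparison. Over all peak-rich windows Mfp2KO held 1.59 times the wild-type tags, so the 3 chains do not stand for the rest.

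**Figure D5:**
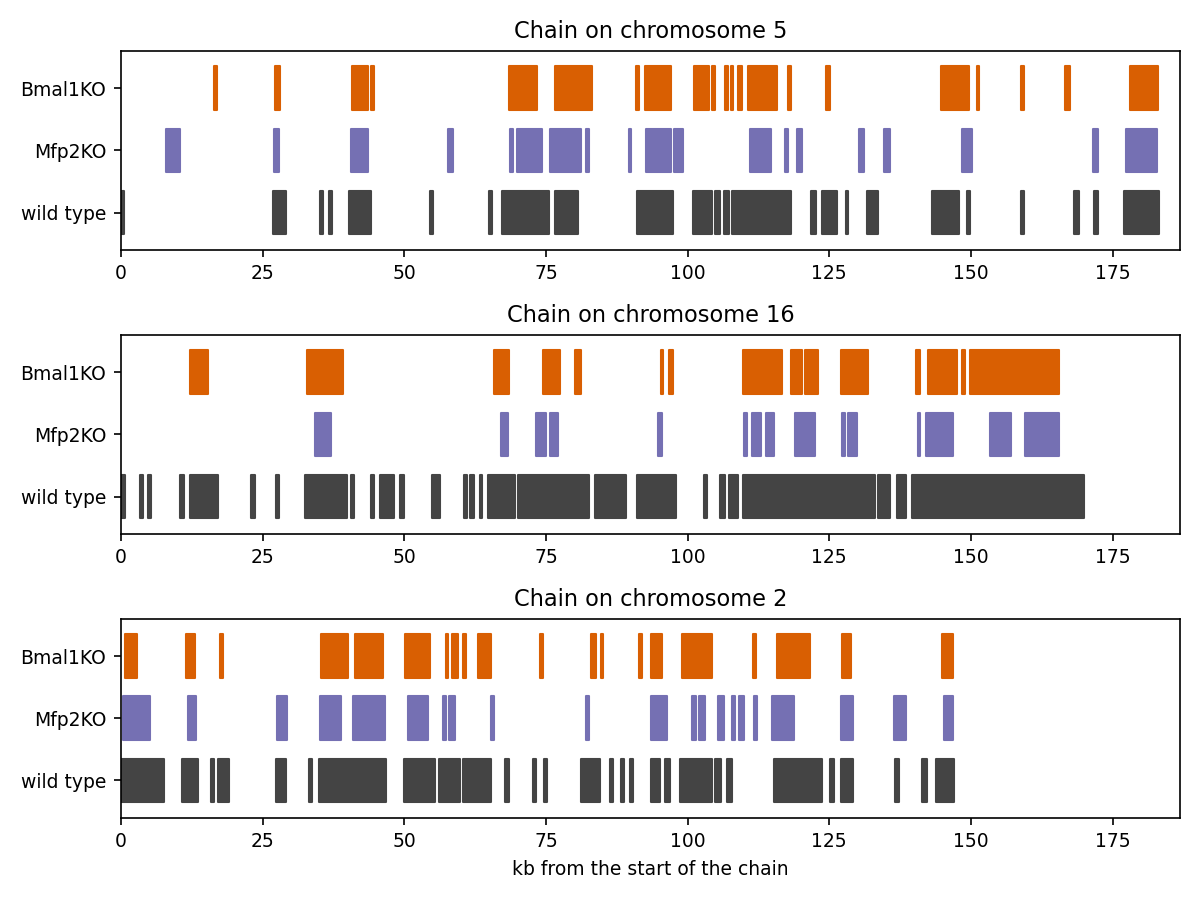
Called H3K27ac peaks (bars, to scale) of Bmal1KO, Mfp2KO and wild type along the 3 longest chains in the peak-rich windows; the horizontal axis is the distance in kb from the start of each chain. Wild type covers most sequence in each, with 113.6 kb on chromosome 16 against 55.7 kb in Bmal1KO and 32.4 kb in Mfp2KO.

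Single wild-type peaks absent from both knockouts were modest in tags. The one with most was on chromosome 4 (134879649-134881849), with 136 tags, 5.39-fold over input, and the nearest peaks 48177 bp away in Bmal1KO and 48447 bp in Mfp2KO. On chromosome 11 (95036441-95037835) a peak of 121.9 tags had 11.32-fold enrichment and no knockout peak within 56479 bp. Another, on chromosome 11 (86620305-86627135), had 112 tags spread over 6830 bp, with a Bmal1KO peak 868 bp and an Mfp2KO peak 1135 bp away. The last, on chromosome 15 (81578253-81579186), had 105.4 tags and was 4.75-fold over input, near the limit of 4-fold.

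Peaks missing from 1 knockout only reached higher tags. On chromosome 4 (140595369-140601128) Bmal1KO had no peak within 29404 bp, against 2 peaks with 119.1 tags in Mfp2KO and 207 tags in wild type. On chromosome 11 (100512996-100518242) the nearest Bmal1KO peak was 1260 bp away, while Mfp2KO had 575 tags and wild type 182. On chromosome 2 (92492866-92497593) the nearest Bmal1KO peak lay 999 bp away, with 186 tags in Mfp2KO and 197 in wild type. Of the peaks missing from Mfp2KO, that on chromosome 9 (59961090-59974073) had 2 peaks with 68.6 tags in Bmal1KO and 308 tags over 12983 bp in wild type. On chromosome 5 (135548961-135555247) there were 77.4 tags in Bmal1KO and 249 in wild type, and on chromosome 11 (101916570-101918990) there were 628 tags in Bmal1KO and 241 in wild type, with no Mfp2KO peak within 40143 bp.

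Of the regions that each knockout had and wild type lacked, the one with most summed tags lay on chromosome 2 (150849981-150852364). It had 277 tags in Bmal1KO and 264.6 in Mfp2KO, and the closest peak of wild type was 27322 bp off. A region of chromosome 15 (76599025-76600959) held 92.5 tags in Bmal1KO and 340 in Mfp2KO, at 1561 bp from the closest peak in wild type. One of chromosome 8 (123040302-123043722) held 114.5 tags in Bmal1KO and 296 in Mfp2KO, and another of chromosome 2 (154390158-154392767) held 170 in Bmal1KO and 199.9 in Mfp2KO. Their closest wild-type peaks stood at 5287 and 16445 bp. Mfp2KO had the higher tags at 3 of these 4 regions.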

How the data were processed

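The 3 deposited peak lists, 1 per ChIP library, were analysed. HOMER findPeaks in histone style, with each genotype's own input, made them per the file headers, by stitching windows of 500 bp and requiring at least 4-fold over input and a p-value of at most 0.0001. The submitters' processing notes name build mm39 and HOMER 5.1, MACS3 3.0.3, Picard 3.4.0, SAMtools 1.23, BWA 0.7.19-r1273 and fastp 1.0.1, with no role stated. Tags per peak are a signal, scaled by the authors to 10 M per library. Input tags are also a deposited signal, brought here to 10 M. The deposited fold over input is a ratio of ChIP to input tags.

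Overlaps, windows, deciles and Wilson and Newcombe intervals were computed with Python 3.11.15, pandas 2.3.3 and scipy 1.17.1, and the functions were tested on simulated data. Widths are end minus start. The members and lists were chosen with earlier results of these data known. Classes of windows by count and by input, deciles, bins of 500 kb and the pairing of knockout with knockout were added after the data were seen. Named windows are the 6 with most wild-type peaks and the 4 highest and lowest by absent share in each knockout. Named peaks are those with most tags or length, 3 or 4 of each kind, and the 3 longest chains. The 500 kb bins and the 3 windows where Mfp2KO exceeded the wild-type length were chosen after their values were seen. Regions on chromosome 18 are not named. Alternatives are given in the closing section. No peak sequence is printed, since no genome of build mm39 was used here.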

Additional observations from a re-analysis of the deposited data

Results flagged for a closer look

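The following 2 windows had at least 5% more peaks than wild type in 1 knockout and at least 5% fewer in the other. On chromosome 4 from 130 to 135 Mb, Bmal1KO had 93.3% and Mfp2KO 109.4% of the wild-type number of peaks. On chromosome 5 from 120 to 125 Mb, Bmal1KO had 87.1% and Mfp2KO 108.4%. The difference between the knockouts was not tested, since each has 1 library.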

How the results depend on the processing

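No paired analysis was possible because each genotype has 1 library and the labels carry no replicate numbers. Of 48 values with a counting interval under alternatives, 21 stayed within that of the reported value and 27 moved. No difference in absent share changed sign under these alternatives. The other differences between peak-rich and other windows were not varied. Among peaks of like tags the Bmal1KO sign did turn. There 2209 wild-type peaks were absent, against 2116 at the rates of other windows. By deciles of tags per kb it turned as well, with 1921 at those rates. For Mfp2KO 2116 were absent, against 2109 by tags per kb, so that its difference was about gone. By deciles of fold for either knockout, and of tags for Mfp2KO, the observed numbers stayed below. The share of wild-type peaks without a Bmal1KO peak was 34.2% with a minimum of 140 peaks, 33.7% in the 40 windows with most Bmal1KO peaks, 48.2% with an overlap of 50% and 30.3% with equal numbers of peaks per list by tags. For Mfp2KO it was 36.2% with a minimum of 100, 32.4% with 140, 31.9% in windows chosen on Mfp2KO, 45.3% with an overlap of 50%, 32.8% at 6-fold over input, 26.2% with equal lists and 33.5% without the windows of chromosomes 10 and 16. Bmal1KO peaks with no wild-type peak made up 25% in windows chosen on Bmal1KO, 27.3% with an overlap of 50% and 30.4% at 6-fold. Mfp2KO peaks with no wild-type peak made up 27.5% with a minimum of 100, 35.7% with an overlap of 50% and 34.2% at 6-fold. Peak-rich minus other windows, the Bmal1KO difference was -5.49 points with a minimum of 140, -4.77 with windows shifted by 2.5 Mb, -6.57 in windows chosen on Bmal1KO, -5.59 at 6-fold and -1.70 with equal lists. The Mfp2KO difference was -10.5 with a minimum of 140, -12.1 in windows chosen on Mfp2KO, -10.5 with an overlap of 50%, -6.84 with equal lists and -9.75 without the windows of chromosomes 10 and 16. Called length in percent of wild type had no interval, so any change in its 14 values is given. In Bmal1KO it was 73.3, 76.1, 74.5, 76.8, 75.7, 75.2 and 74.6% with a minimum of 100, a minimum of 140, shifted windows, windows chosen on Bmal1KO, 6-fold, equal lists, and without the windows of chromosomes 10 and 16. In Mfp2KO it was 78.7, 84.8, 82.3, 85.5, 87.6, 84.0 and 83.5% in the same order. The cause of these moves was not tested. A minimum of 100 kept 83 windows, a minimum of 140 kept 21, and shifted windows gave 51. Of the 40 windows with most peaks in each knockout, 30 were among the 40 of wild type. Choosing windows on a knockout's own peaks favours fewer absent peaks and more peaks and called length in that knockout. The values from windows chosen in this way are thus a description only. Choosing them on the wild-type count, as in the reported values, favours more absent wild-type peaks. The alternative without the windows of chromosomes 10 and 16 was chosen after seeing the data. Absent peaks had a median of 11.1 tags, and depth was lowest in Bmal1KO.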
